A study of Rattus norvegicus with 59 samples.

Results

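The comparison described here set the striatum of 6 iP rats against the striatum of 6 iNP rats, with 1 array per rat. Its 12 arrays were those whose title names the striatum, out of 59 arrays in the series, and the line of each rat was also read from the title. The iP group was adult male rats of the inbred alcohol-preferring line (iP5C in the series text), animals 1 to 6. The iNP group was adult male rats of the inbred non-preferring line (iNP1), animals 7 to 12. All rats were housed in pairs on a 12:12 light cycle with free chow and water and were handled before decapitation, and no treatment or alcohol access is named in the labels. Trizol was used to extract total RNA, and biotin-labelled cRNA was made and hybridised for each rat on its own. The same rats gave accumbens (12 arrays), amygdala (12), frontal cortex (11, of which 5 iP) and hippocampus (12). The source name calls all 59 arrays iNP and was not used. Rats of an inbred line are close to genetically identical, so 6 rats of 1 line sample 1 genotype, and differences that selection fixed and those that inbreeding fixed by chance cannot be told apart.

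The striatum is the main input station of the basal ganglia. Nearly all of its neurons are GABAergic medium spiny neurons, which receive glutamate from cortex and thalamus and dopamine from the midbrain. They fall into a direct-pathway class, marked by the D1 dopamine receptor, tachykinin 1 and dynorphin, and an indirect-pathway class, marked by an adenosine receptor and enkephalin. The dorsal part is known for action selection and habits and the ventral part, the accumbens, for reward, and both are studied in alcohol seeking.

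The values were probe set signals, each summarising a group of short probes. Most probe sets carry 1 gene symbol, and some carry several or none. They are given as log2 signal, with signals under 16 set to 16. A call means a Benjamini-Hochberg adjusted p under 0.05 in limma over 5244 probe sets, and differences are iP minus iNP with their standard error (SE). Median signal per array ran from 323.7 to 356.5 in striatum, and 4.36 to 7.47% of probe sets lay at the floor. The median signal averaged 338.3 ± 9.86 in iP and 349.6 ± 8.48 in iNP (SD, n = 6 each, exact permutation test, two-sided p = 0.0671, 0.335 adjusted over 5 quality measures). The 3′ to 5′ signal ratio of Gapdh, a measure of RNA integrity, averaged 0.06 ± 0.06 in iP and 0.07 ± 0.06 in iNP on the log2 scale (SD, n = 6 each, exact permutation p = 0.892). The beta-actin ratio averaged 0.54 ± 0.12 in iP and 0.62 ± 0.24 in iNP (exact permutation p = 0.491). For hexokinase the ratio averaged 0.91 ± 0.32 in iP and 0.68 ± 0.19 in iNP (exact permutation p = 0.149). Striatum of iP animal 2 stood a little apart, with a mean correlation of 0.951 with the other iP arrays. Outside striatum, cortex of iP animal 5 had a Gapdh ratio of 6.14 and accumbens of iP animal 4 a hexokinase ratio of 3.91 (log2). The rats were housed in pairs, but no label says which rats shared a cage or whether rats of a line shared a litter.

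The label of the tissue was checked with marker genes. The 10 tested markers shared by both medium spiny neuron classes averaged 0.98 log2 units above their mean over all arrays in striatum and 0.85 in accumbens, against -0.31 in amygdala, -0.73 in cortex and -0.85 in hippocampus. Every striatum array lay between 0.62 and 1.34 on this score. The highest array of the other regions lay at 1.08, inside that range. Of the 10 markers 7 had their highest level of the 5 regions in striatum. The 5 tested direct-pathway markers averaged 0.67 in striatum and 0.78 in accumbens, and 0 of them were highest in striatum. The 2 tested indirect-pathway markers averaged 1.46 in striatum and 1.14 in accumbens. The markers thus do not fully separate striatum from accumbens. Rgs9, a regulator of dopamine signalling in medium spiny neurons, averaged 11.25 in striatum, 10.81 in accumbens, 7.64 in amygdala, 6.65 in cortex and 6.34 in hippocampus. Choroid plexus and ependymal markers, which would show tissue lining the ventricle, averaged -0.46 in striatum and 0.73 in hippocampus.

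The lines differed in striatum at 44 of 5244 probe sets, 0.839% of those tested. Signal was higher in iP at 19 (0.362%) and lower at 25 (0.477%). The groups had no overlapping values at 75 probe sets (1.43%), which included 43 of the 44 calls. Of the called probe sets 35 carry a single gene symbol and stand for 33 genes, 2 carry several symbols and 7 none. Those with several symbols are 1 of Fth1 and Fth1-ps5 (0.72 ± 0.07, limma, adjusted p = 5.32e-05) and 1 of Tpt1, Tpt1l1 and Tpt1l3 (-0.45 ± 0.08, adjusted p = 0.00619). Differences of called probe sets ran from 0.33 to 4.36 in size, 13 of them over 1 log2 unit, and none of the called probe sets was at the floor on any striatum array. The median difference over all tested probe sets was -0.02.

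**Figure D1:**
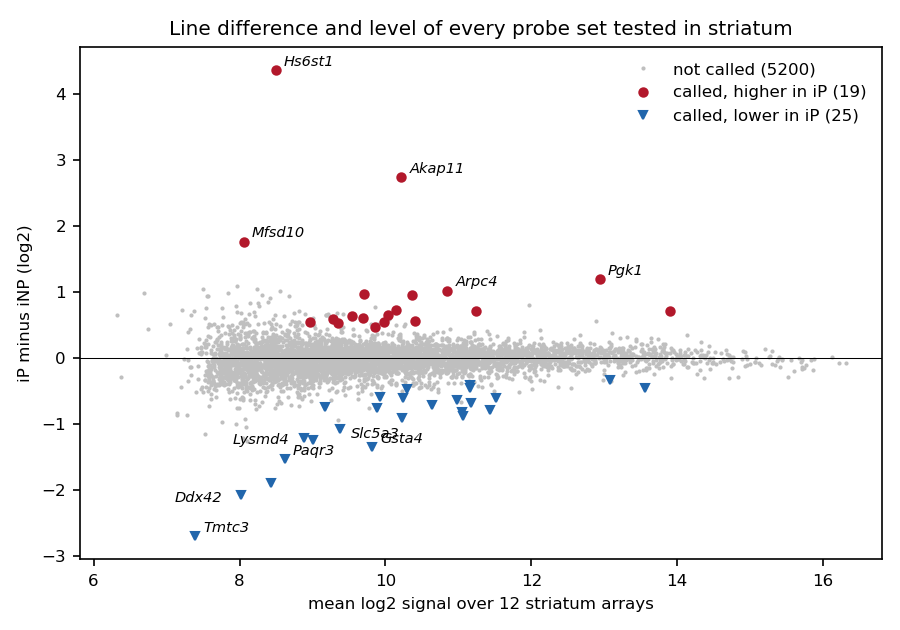
Difference between the lines (iP minus iNP, log2) against mean log2 signal in striatum for 5244 probe sets, with called probe sets coloured and the largest named. The 44 called probe sets spread over the range of signal, with Hs6st1 at 4.36 and Tmtc3 at -2.69 as the extremes.

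Hs6st1 and Akap11 showed the largest rises. Hs6st1 encodes heparan sulfate 6-O-sulfotransferase 1, a Golgi enzyme that places sulfate groups on heparan sulfate chains and so shapes their binding of growth factors. Its signal was 10.28 at the lowest, 10.74 at the median and 11.09 at the highest in iP striatum, against 5.87, 6.28 and 6.78 in iNP striatum. Every iP array lay more than 3 log2 units above every iNP array. The measured difference was 4.36 ± 0.18 (SE, limma, adjusted p = 8.06e-10). All iNP values lay under 7.65, the mean signal below which probe sets were dropped, and whether iNP signal was above background was not measured. With iNP set to that level, the signal was at least 8.13-fold higher in iP. Akap11 encodes an anchoring protein that ties protein kinase A, the kinase downstream of dopamine receptors, to particular places in the cell. Its signal was 10.73, 11.76 and 11.94 in iP (lowest, median, highest), against 8.30, 8.87 and 9.32 in iNP. The groups did not overlap, and iP animal 4 was the lowest of its line by a wide margin. The difference was 2.73 ± 0.20, or 6.65-fold (limma, adjusted p = 9.38e-07).

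Further rises were found for genes of transport, metabolism and the cytoskeleton. Mfsd10, a membrane transporter of the major facilitator family, had 8.77, 8.92 and 9.11 in iP (lowest, median, highest), against 5.95, 7.44 and 8.03 in iNP. The iNP rats were widely spread, with animals 7 and 8 lowest, yet none reached an iP value, and the difference was 1.76 ± 0.32 (limma, adjusted p = 0.0109). The iNP mean of 7.18 lay under the filter level of 7.65, which gives at least 2.45-fold higher signal in iP. The call was lost when no probe set was dropped before the test (adjusted p = 0.0525). Pgk1, the phosphoglycerate kinase of glycolysis, had 13.41, 13.49 and 13.87 in iP, against 12.13, 12.31 and 12.52 in iNP. The lines were separated by a clear gap, and the difference was 1.20 ± 0.09, 2.30-fold higher in iP (limma, adjusted p = 2.12e-06). Arpc4, a subunit of the Arp2/3 complex that starts branched actin filaments, had 11.07, 11.41 and 11.56 in iP, against 10.05, 10.31 and 10.61 in iNP. All 6 iP arrays exceeded all iNP arrays, by 1.02 ± 0.11 on average (limma, adjusted p = 0.000142).

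Tnfrsf21 and Nptn encode proteins of the cell surface, Tmed2 one of the early secretory pathway and Nefh one of the axon. Tnfrsf21 is death receptor 6, a tumour necrosis factor family receptor with a role in axon pruning. It had 10.07, 10.15 and 10.40 in iP (lowest, median, highest), against 8.80, 9.27 and 9.49 in iNP. The lines did not overlap, and the difference was 0.97 ± 0.13 (limma, adjusted p = 0.000711). Tmed2, a cargo receptor between endoplasmic reticulum and Golgi, had 10.40, 10.45 and 10.68 in iP, against 9.43, 9.83 and 9.95 in iNP. Its iP values were tightly grouped above all iNP values, with a difference of 0.72 ± 0.10 (limma, adjusted p = 0.00121). Nptn is neuroplastin, a synaptic adhesion molecule, with 11.36, 11.56 and 11.93 in iP, against 10.57, 10.90 and 11.21 in iNP. The gap between the lines was narrow and the difference was 0.71 ± 0.14 (limma, adjusted p = 0.0158). Nefh, the heavy neurofilament chain of large axons, had 10.16, 10.36 and 10.54 in iP, against 9.27, 9.70 and 10.02 in iNP. Again no iNP array reached an iP value, and the difference was 0.64 ± 0.12 (limma, adjusted p = 0.0171). The Nefh call was lost without iNP animal 9 (adjusted p = 0.0518), with the spread taken from all 59 arrays (0.0672, and 0.0676 with the animal as a random block) and with the mean of its probe sets (0.303).

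The remaining named rises were smaller. Chordc1, a partner of the chaperone Hsp90, was higher by 0.63 in iP and Atic, an enzyme of purine synthesis, by 0.59. A second Atic probe set was dropped by the level filter and not tested. Its means were 6.84 in iP and 7.19 in iNP. Clns1a, which takes part in assembling spliceosomal particles, and Asns, the asparagine synthetase, were each higher by 0.55. The other tested probe sets of Clns1a differed by 0.01 and -0.01, and the mean over its probe sets was not called (0.19, adjusted p = 0.576). Aldh1a1, a retinaldehyde and aldehyde dehydrogenase that also marks a group of midbrain dopamine neurons, was higher by 0.55 as well. Pcmtd1, which carries an isoaspartate methyltransferase domain, rose by 0.52 and Ufsp2, a protease of the ubiquitin-like modifier UFM1, by 0.48. Asns lost its call in 9 of the other analysis settings and Aldh1a1 in 6, each time when 1 rat was left out, with adjusted p of up to 0.0714 for Asns and 0.0741 for Aldh1a1.

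**Figure D2:**
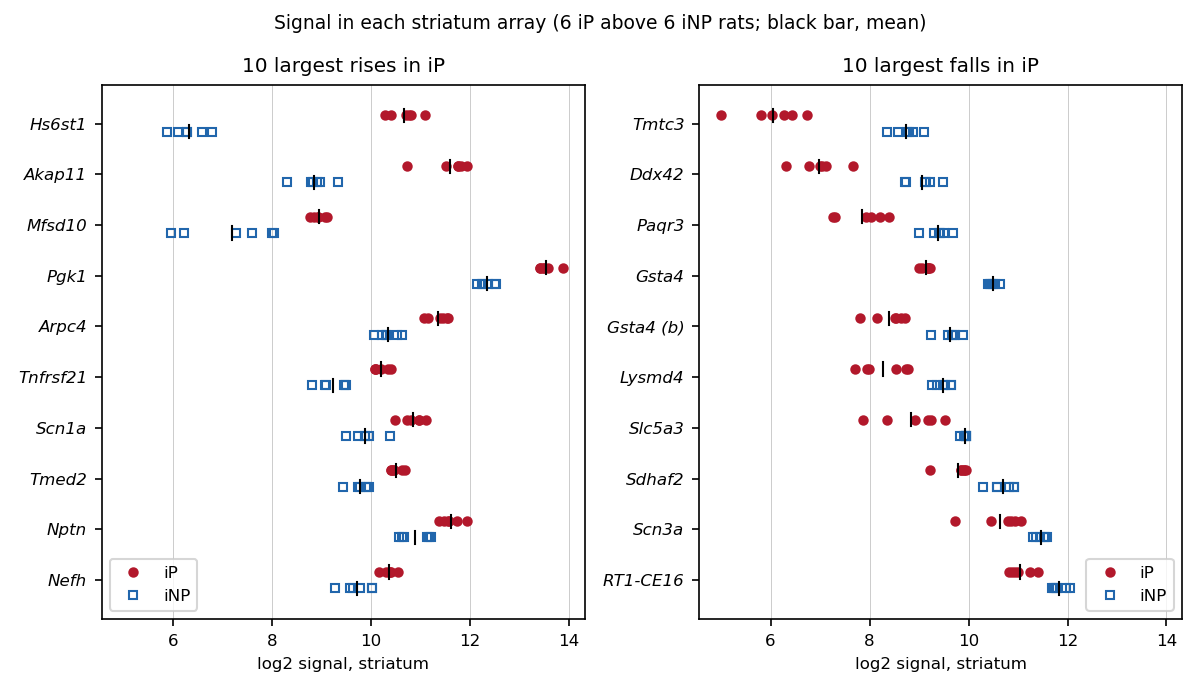
Log2 signal of each striatum array for the 10 largest named rises and the 10 largest named falls, with iP as filled points and iNP as open squares. Gsta4 appears as 2 probe sets, the second marked (b), and for all 20 probe sets the iP and iNP values do not overlap.

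Falls were led by Tmtc3 and Ddx42. Tmtc3 encodes an endoplasmic reticulum protein that adds O-linked mannose to cadherins. Its signal was 5.00, 6.15 and 6.74 in iP striatum (lowest, median, highest), against 8.35, 8.77 and 9.09 in iNP striatum. Every iP array was well below every iNP array, and the measured difference was -2.69 ± 0.27 (limma, adjusted p = 5.32e-05). All iP values lay under the filter level of 7.65, and with iP set to that level the signal was at least 2.13-fold lower in iP. Ddx42, an RNA helicase that works with the spliceosome, had 6.31, 7.02 and 7.67 in iP, against 8.71, 9.13 and 9.49 in iNP. The lines lay about a log2 unit apart at their closest, and the measured difference was -2.08 ± 0.22 (limma, adjusted p = 6.08e-05). Its iP mean of 6.98 also lay under the filter level, which gives at least 2.67-fold lower signal in iP. Paqr3, a Golgi protein that holds Raf kinases away from the plasma membrane, had 7.26, 7.97 and 8.39 in iP, against 8.99, 9.42 and 9.69 in iNP. No value of one line fell within the other, and the difference was -1.54 ± 0.20 (limma, adjusted p = 0.000592).

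Gsta4 is a glutathione transferase that detoxifies 4-hydroxynonenal, an aldehyde made when membrane lipids oxidise. Its brighter probe set had 8.99, 9.18 and 9.23 in iP (lowest, median, highest), against 10.40, 10.47 and 10.63 in iNP. Both lines were tight and far apart, and the difference was -1.35 ± 0.08, 2.56-fold lower in iP (limma, adjusted p = 1.63e-07). The second probe set, made from the same sequence record, had 7.80, 8.52 and 8.71 in iP, against 9.25, 9.68 and 9.89 in iNP. It fell by a similar amount with no overlap, -1.24 ± 0.16 (limma, adjusted p = 0.000575).

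Lysmd4, a membrane protein with a LysM domain, had 7.70, 8.25 and 8.78 in iP (lowest, median, highest), against 9.25, 9.50 and 9.65 in iNP. The lines did not overlap, and the difference was -1.21 ± 0.18 (limma, adjusted p = 0.0025). Slc5a3, the sodium-coupled carrier of myo-inositol, an osmolyte, had 7.86, 9.04 and 9.52 in iP, against 9.84, 9.94 and 9.96 in iNP. The iNP rats were nearly equal while the iP rats were spread out, with animals 2 and 4 lowest. The difference was -1.08 ± 0.22 (limma, adjusted p = 0.0262), and 12 other settings lost this call, with an adjusted p of up to 0.0979. Sdhaf2, which helps to place the flavin cofactor in succinate dehydrogenase, had 9.22, 9.87 and 9.95 in iP, against 10.30, 10.70 and 10.93 in iNP. Without overlap, 5 iP rats clustered closely and animal 1 lay lower, and the difference was -0.91 ± 0.14 (limma, adjusted p = 0.00286).

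Other falls involved serine synthesis, matrix, RNA editing and glycolipids. Phgdh, the first enzyme of serine synthesis and a gene of astrocytes, fell at 2 probe sets, by 0.61 and 0.63. The 12 tested astrocyte markers averaged -0.01 ± 0.11 in iP and -0.08 ± 0.04 in iNP, and the part of astrocytes in the Phgdh fall was not tested. Fn1, the matrix protein fibronectin, fell by 0.61 and B4galt6, which makes lactosylceramide, by 0.48. The Fn1 call was lost without iP animal 4 or iNP animal 8 or 11 (adjusted p 0.0503 to 0.0535) and with the mean of its probe sets (0.0853). The B4galt6 call was lost when the spread was taken from all 59 arrays (adjusted p = 0.784). Adarb1, the deaminase that edits the glutamate receptor Gria2 transcript, was the single called probe set at which the lines overlapped. It had 9.39, 9.61 and 9.95 in iP (lowest, median, highest), against 9.94, 10.17 and 10.50 in iNP, a difference of -0.59 ± 0.13 (limma, adjusted p = 0.0348). Its call was lost in 15 other settings, with an adjusted p of up to 0.951. Rpl6, a protein of the large ribosomal subunit, fell by 0.33. The called probe sets without a symbol differed by between -1.89 and 0.60. At the threshold, the last called probe set was that of Scn3a (adjusted p = 0.0446) and the next was a second one of the same gene (adjusted p = 0.0599).

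The sodium channel genes Scn1a and Scn3a changed in opposite directions. Scn1a encodes Nav1.1, the channel of fast-spiking interneurons, and Scn3a encodes Nav1.3, which is highest in the developing brain. Scn1a had 10.48, 10.88 and 11.11 in iP (lowest, median, highest), against 9.49, 9.88 and 10.37 in iNP. The lines were separate, though only just, and the difference was 0.96 ± 0.14 (limma, adjusted p = 0.00149). Pvalb, a marker of fast-spiking interneurons, averaged higher in iP as well, by 0.34 ± 0.11 without passing (adjusted p = 0.30), and its part in the Scn1a rise was not tested. Scn3a had 9.72, 10.83 and 11.06 in iP, against 11.30, 11.48 and 11.59 in iNP. One iP rat lay far below the others, and no iP rat reached the iNP range. The difference was -0.82 ± 0.18 (limma, adjusted p = 0.0446), and the call was lost in 14 other settings, with an adjusted p of up to 0.138. Of the 8 tested genes of sodium channels and sodium pumps, 1 rose, 1 fell and 6 did not pass, with a median of 0.08. Over all tested probe sets 0.362% rose and 0.477% fell. Among those 6, Atp1b1, a subunit of the sodium pump, differed by 0.10 ± 0.07 and Scn2a, the Nav1.2 channel, by 0.27 ± 0.09. In the GRCr8 gene order, 5 protein-coding genes lie between Scn1a and Scn3a on chromosome 3. Atic, which rose at its tested probe set, and Fn1, which fell, are next to each other on chromosome 9, with 0 protein-coding genes between them.

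Class I genes of the major histocompatibility complex (MHC) present peptides to T cells and also occur on neurons. Together with class II and antigen processing genes they formed the list with the most calls. Among 18 tested genes of MHC and antigen processing there were 3 falls, 0 rises and 15 without a call. Over all tested probe sets 0.477% fell and 0.839% were called. The list median was -0.13, beside -0.02 over all tested probe sets. Its members ran from -0.92 to 0.98, with 13 negative and 5 positive differences. The highest was that of Cd74, the class II invariant chain, which was higher in iP by 0.98 without a call. RT1-CE16 had 10.82, 10.97 and 11.40 in iP striatum (lowest, median, highest), against 11.68, 11.77 and 12.06 in iNP striatum. All iP values lay lower, and the difference was -0.78 ± 0.11 (limma, adjusted p = 0.000881). RT1-A fell by 0.71 and RT1-CE12 by 0.46. These 3 probe sets carry the suffix that Affymetrix gives to probes shared within a gene family, so their signals cannot be assigned to 1 member each. RT1-CE16 and RT1-CE12 are also near neighbours on chromosome 20, with 1 protein-coding gene between them. B2m, the light chain of class I molecules, differed by -0.32 ± 0.08 (adjusted p = 0.0767) with no overlap. Psme1, an activator of the proteasome, differed by -0.05 ± 0.15. The microglial list, whose cells also carry MHC, averaged -0.14 in iP (range -0.29 to -0.03) and -0.20 in iNP (range -0.44 to 0.15), and its part in the MHC falls was not tested.

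Genes of dopamine, cAMP and phosphatase signalling had 1 rise among 39 tested, that of Akap11, with 0 falls and a median of -0.01, beside 0.362% of all tested probe sets that rose. Gnas, the stimulatory G protein subunit, differed by 0.10 ± 0.14 and Camk2b, a calcium-dependent kinase, by -0.02 ± 0.25. No member passed among 10 genes of monoamine synthesis, transport and breakdown (median -0.08), where the highest signals were those of Qdpr (0.03 ± 0.11) and Maob (-0.24 ± 0.11). No member passed among 7 opioid genes (median 0.01), which include Cpe, an enzyme that trims propeptides (-0.06 ± 0.06), and Penk, proenkephalin (0.01 ± 0.19). As markers are counted in bulk tissue, fewer cells of a type and less RNA per cell cannot be told apart.

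Medium spiny neuron genes did not pass the test in either direction, where 0.839% of all tested probe sets were called. The 10 shared markers had a median difference of -0.01, with Pcp4 at -0.01 ± 0.15, Ptpn5 at -0.01 ± 0.14, Gad1 at -0.04 ± 0.17, Gng7 at 0.08 ± 0.08 and Arpp21 at 0.01 ± 0.14. Pde1b differed by -0.13 ± 0.14, Rgs9 by 0.06 ± 0.25, Adcy5 by -0.01 ± 0.09, Gnal by -0.07 ± 0.24 and Gad2 by 0.16 ± 0.11. As a score they averaged 0.98 ± 0.27 in iP and 0.98 ± 0.23 in iNP (SD, n = 6 each). Of the direct-pathway genes, Tac1 differed by -0.13 ± 0.22, Pdyn by 0.13 ± 0.10, Drd1 by -0.04 ± 0.23, Chrm4 by -0.01 ± 0.15 and Isl1 by -0.02 ± 0.20. Of the indirect-pathway genes only Penk and Adora2a (-0.01 ± 0.18) were tested. The SE of these genes ran up to 0.25.

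Interneuron genes were also without a call among 9 tested, beside 0.839% called over all tested probe sets. Sst differed by -0.02 ± 0.08, Cck by 0.10 ± 0.09, Calb2 by -0.08 ± 0.11, Slc18a3 by 0.03 ± 0.14, Htr3a by -0.07 ± 0.14, Th by 0.24 ± 0.30 and Vip by -0.25 ± 0.15. The largest differences for their error were those of Npy and Pvalb. Npy, neuropeptide Y, had 11.16, 11.38 and 11.66 in iP (lowest, median, highest), against 11.57, 11.65 and 11.90 in iNP. The lines overlapped at their edges, and the difference was -0.29 ± 0.09 (limma, adjusted p = 0.315). Pvalb, parvalbumin of fast-spiking interneurons, had 10.56, 10.61 and 11.02 in iP, against 10.11, 10.43 and 10.58 in iNP. Here too the ranges just touched, and the difference was 0.34 ± 0.11 (limma, adjusted p = 0.30).

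**Figure D3:**
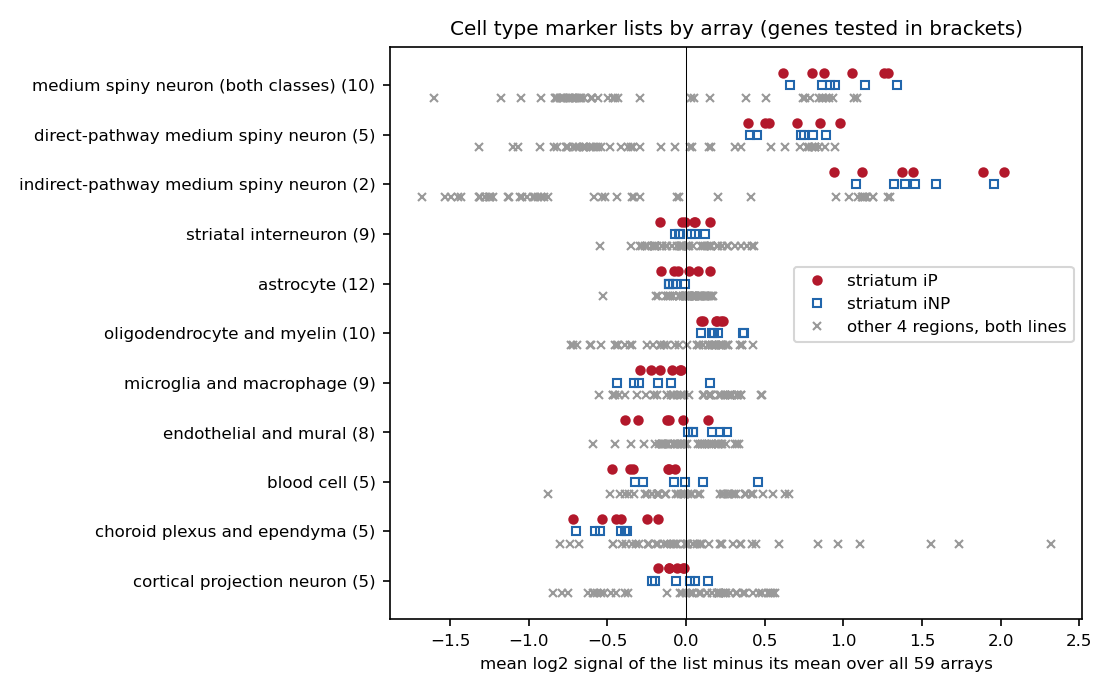
Mean log2 signal of 11 cell type marker lists on each array, minus the list's mean over 59 arrays, for striatum iP (filled points), striatum iNP (open squares) and the other regions (grey crosses). Medium spiny neuron lists set striatum apart from most other arrays with iP and iNP overlapping, while the endothelial and mural list averaged -0.13 in iP and 0.12 in iNP.

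Glial and vascular marker lists held no call, beside 0.839% called over all tested probe sets. Of 12 astrocyte genes the brightest were Apoe (0.14 ± 0.08) and S100b (-0.05 ± 0.06), with a median of 0.07, and of 10 myelin genes Mbp (-0.16 ± 0.11) and Mobp (-0.09 ± 0.08), with a median of -0.08. Of 9 microglial genes, Ctss differed by -0.08 ± 0.09 and C1qb by 0.20 ± 0.11. P2ry12, a purine receptor of microglia, had the lowest difference of that list, -0.93 ± 0.21, without passing (adjusted p = 0.0655). The highest difference of the list was that of Cd74, higher in iP by 0.98, also without a call. Of its differences 5 were positive and 4 negative, with a median of 0.02. The 8 endothelial and mural genes had a median of -0.23, and their score averaged -0.13 ± 0.19 in iP (range -0.39 to 0.14) and 0.12 ± 0.10 in iNP (range 0.01 to 0.26). Pecam1, an adhesion molecule of endothelium, differed by -0.77 ± 0.19 (adjusted p = 0.0979), and Slc2a1 by 0.05 ± 0.14 and Acta2 by -0.19 ± 0.25. The 5 blood cell genes had a median of -0.25, including Hbb (-0.25 ± 0.16) and Hbb-b1 (-0.33 ± 0.15). P2ry12, Cd74 and Pecam1 were singled out after their values were seen. The blood score averaged -0.24 ± 0.17 in iP and -0.02 ± 0.28 in iNP. Fibronectin is made by vascular cells and circulates in plasma, and both scores averaged lower in iP beside the fall of Fn1. Their part in it was not tested. Of 5 choroid plexus and ependymal genes, Cd9 differed by -0.28 ± 0.11 and Enpp2 by -0.16 ± 0.10, and of 5 cortical neuron genes Nrgn by 0.08 ± 0.09 and Nptx1 by 0.05 ± 0.11.

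The listed receptor and channel genes other than the sodium channels did not pass. As 0.839% of all tested probe sets were called, short lists without a call do not show that the lines are alike. None of 14 AMPA, kainate and NMDA receptor genes was called (median 0.05), with Gria2, the subunit that Adarb1 edits, at -0.16 ± 0.17 and Grik5 at 0.06 ± 0.11. None of 8 metabotropic glutamate receptor genes was called (median -0.10), with the scaffold Homer1 at 0.01 ± 0.08 and Grm3 at -0.40 ± 0.25. None of 16 GABA genes was called (median -0.03), and Gabrb2, a GABA-A receptor subunit, differed by 0.24 ± 0.08. The 19 potassium channel genes had a median of -0.03, with Kcnab2 at -0.02 ± 0.10 and Kcnh3 at -0.05 ± 0.12. The 11 voltage-gated calcium channel genes had a median of -0.11 and 10 negative differences, none of them called, with Cacna2d1 at 0.17 ± 0.14 and Cacna1a at -0.07 ± 0.13. No call was made either among 31 genes of synaptic vesicles and membrane traffic (median 0.00), where Dnm1 differed by -0.03 ± 0.08 and Snap25 by 0.30 ± 0.17, or among 11 of axon guidance (median -0.12), where Gap43 differed by -0.12 ± 0.08 and Unc5b by -0.11 ± 0.13.

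In aldehyde and glutathione metabolism, calls were limited to Gsta4 and Aldh1a1 among the genes listed. For comparison, 0.362% of all tested probe sets rose and 0.477% fell. Of 17 glutathione transferase and synthesis genes, 1 fell, 0 rose and 16 did not pass, with a median of 0.10. Gpx4, which reduces lipid peroxides, differed by 0.11 ± 0.06 and Mgst3 by -0.05 ± 0.09. Of 10 genes of alcohol and aldehyde oxidation, 1 rose, 0 fell and 9 did not pass, with a median of 0.04. Adh5, the alcohol dehydrogenase of most tissues, differed by 0.00 ± 0.09 and Aldh6a1 by 0.04 ± 0.11. Of 9 tested candidate genes for alcohol preference, 1 fell, Gsta4, and 8 did not pass. Beside Npy and Pdyn, given above, Npy1r differed by -0.06 ± 0.21, Crh by -0.01 ± 0.21, Grm2 by 0.03 ± 0.16, Grm7 by -0.12 ± 0.10, Neurod1 by -0.14 ± 0.15 and Cartpt by -0.38 ± 0.19. Candidates of this kind come partly from work on these lines, so the list is not independent evidence for Gsta4.

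The other lists held at most 2 calls each, where 0.839% of all tested probe sets were called. Pgk1 was the only one of 14 glycolysis genes to pass (median 0.01), and Aldoc (0.09 ± 0.08) and Pkm (0.00 ± 0.06) did not. Among 9 genes of serine, asparagine and creatine synthesis Asns rose and Phgdh fell, while Ckb differed by 0.01 ± 0.10 and Glul by -0.09 ± 0.12. Arpc4 was the single call of 10 actin genes, beside Tmsb4x (-0.07 ± 0.07) and Actg1 (0.09 ± 0.10). Hs6st1 was the single call of 12 heparan sulfate and proteoglycan genes (median -0.01), beside Sdc4 (-0.05 ± 0.13) and Bcan (0.11 ± 0.07). Rpl6 was the single call of 36 ribosomal protein genes (median -0.02), beside Rps29 (0.02 ± 0.07) and Rps16 (-0.05 ± 0.07). No call was made among 25 respiratory chain genes (median 0.02), which include Cox4i1 (-0.07 ± 0.07) and Cox8a (-0.11 ± 0.07), or 19 heat shock and chaperone genes (median 0.05), which include Hsp90ab1 (-0.08 ± 0.09) and Canx (0.13 ± 0.18). The 19 immediate early genes, which neurons switch on after activity, had 14 negative differences and a median of -0.18, and none passed. Their brightest members were Egr1 (0.14 ± 0.09) and Arc (-0.11 ± 0.07).

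Several called genes were measured by more than 1 tested probe set, and these did not always move together. Hs6st1, Akap11, Tmtc3, Ddx42, Paqr3, Mfsd10 and Arpc4 each had only 1 probe set under their symbol. Their differences could not be compared in this way. For Pgk1 the called probe set differed by 1.20 ± 0.09 and the other by 0.23 ± 0.07 (limma, adjusted p = 0.309). Tnfrsf21 differed by 0.97 ± 0.13 and, at a second probe set made from the same sequence record, by 0.12 ± 0.08. Tmed2 differed by 0.72 ± 0.10 and 0.14 ± 0.08, and Clns1a by 0.55 ± 0.09 against 0.01 ± 0.11 and -0.01 ± 0.14. In contrast, all 3 Phgdh probe sets lay between -0.63 and -0.59, those of Fn1 between -0.61 and -0.41, and those of Scn3a at -0.82 and -0.69. The probe sets of Nptn were at 0.71 and 0.30, of Nefh at 0.64 and 0.35, of Lysmd4 at -1.21 and -0.67 and of Rpl6 at -0.33 and -0.25. When each gene was tested by the mean of its tested probe sets, Clns1a (0.19, adjusted p = 0.576), Nefh (0.49, 0.303), Rpl6 (-0.29, 0.111) and Fn1 (-0.53, 0.0853) lost their calls. Pgk1 (0.71), Tnfrsf21 (0.54), Tmed2 (0.43), Nptn (0.50), Lysmd4 (-0.94), Scn3a (-0.75), Phgdh (-0.61) and Gsta4 (-1.30) kept theirs. The size of the Pgk1, Tnfrsf21 and Tmed2 differences thus depends on the probe set, and the cause was not tested.

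**Figure D4:**
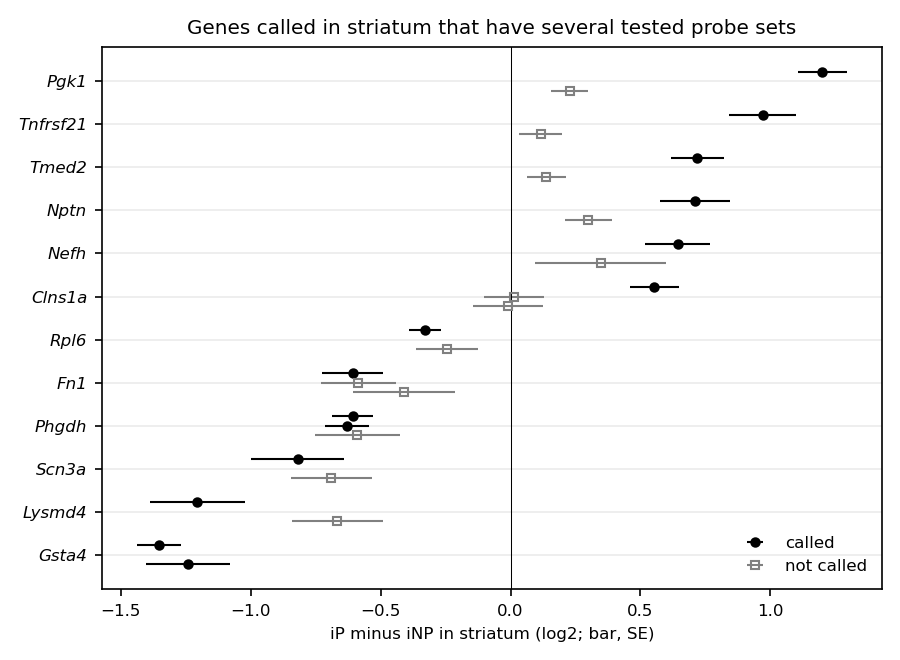
Difference between the lines in striatum (iP minus iNP, log2, bars are SE) for each tested probe set of the called genes with more than 1. Probe sets of Gsta4 and Phgdh lie together, while those of Pgk1 (1.20 and 0.23) and Tnfrsf21 (0.97 and 0.12) lie apart.

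The 4 other regions came from the same rats, so they are other arrays but not other animals. There, 30 probe sets were called in accumbens (0.572%), 38 in amygdala (0.725%), 12 in cortex (0.229%) and 35 in hippocampus (0.667%). Calls shared with striatum in the same direction numbered 21 in accumbens, which is 47.7% of the striatum calls and 70% of the accumbens calls. They numbered 25 in amygdala (56.8% and 65.8%), 10 in cortex (22.7% and 83.3%) and 24 in hippocampus (54.5% and 68.6%). Of the 44 striatum calls, 9 were called in all 4 other regions and 11 in none. Cortex of iP animal 5, whose array stands apart as given above, was part of these counts. Without it, 24 probe sets were called in cortex (0.458%) and 21 of them were shared with striatum (47.7% and 87.5%), and 13 striatum calls were called in all 4 other regions and 11 in none. The difference had the same sign in all 4 other regions for 42, with all arrays. The exceptions were Ufsp2, at 0.48 ± 0.09 in striatum and -0.06 ± 0.16 in accumbens, and Nefh, at 0.64 ± 0.12 in striatum and -0.00 ± 0.09 in hippocampus.

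Hs6st1 differed by 4.36 ± 0.18 in striatum, beside 4.95 ± 0.24 in accumbens, 4.28 ± 0.25 in amygdala, 3.44 ± 0.85 in cortex and 4.05 ± 0.21 in hippocampus. It was called in each of these regions except cortex (adjusted p = 0.279), where it was called without iP animal 5 (4.48 ± 0.26, adjusted p = 1.21e-06). Akap11 was called in all, with 2.73 ± 0.20 in striatum, 3.24 ± 0.15 in accumbens, 2.25 ± 0.11 in amygdala, 2.16 ± 0.30 in cortex and 2.37 ± 0.14 in hippocampus. Pgk1, Arpc4, Sdhaf2, Lysmd4, Paqr3, Ddx42, the brighter Gsta4 probe set and the probe set of Fth1 and Fth1-ps5 were likewise called in all. The 11 striatum calls that were called nowhere else include Nptn, Nefh, Aldh1a1, Pcmtd1, Ufsp2, Rpl6, B4galt6 and Adarb1. Aldh1a1 differed by 0.55 ± 0.11 in striatum and by 0.20 ± 0.14 in accumbens, 0.09 ± 0.12 in amygdala, 0.43 ± 0.12 in cortex and 0.29 ± 0.11 in hippocampus. A call in 1 region and not in another does not show that the regions differ, and that difference was therefore tested directly.

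**Figure D5:**
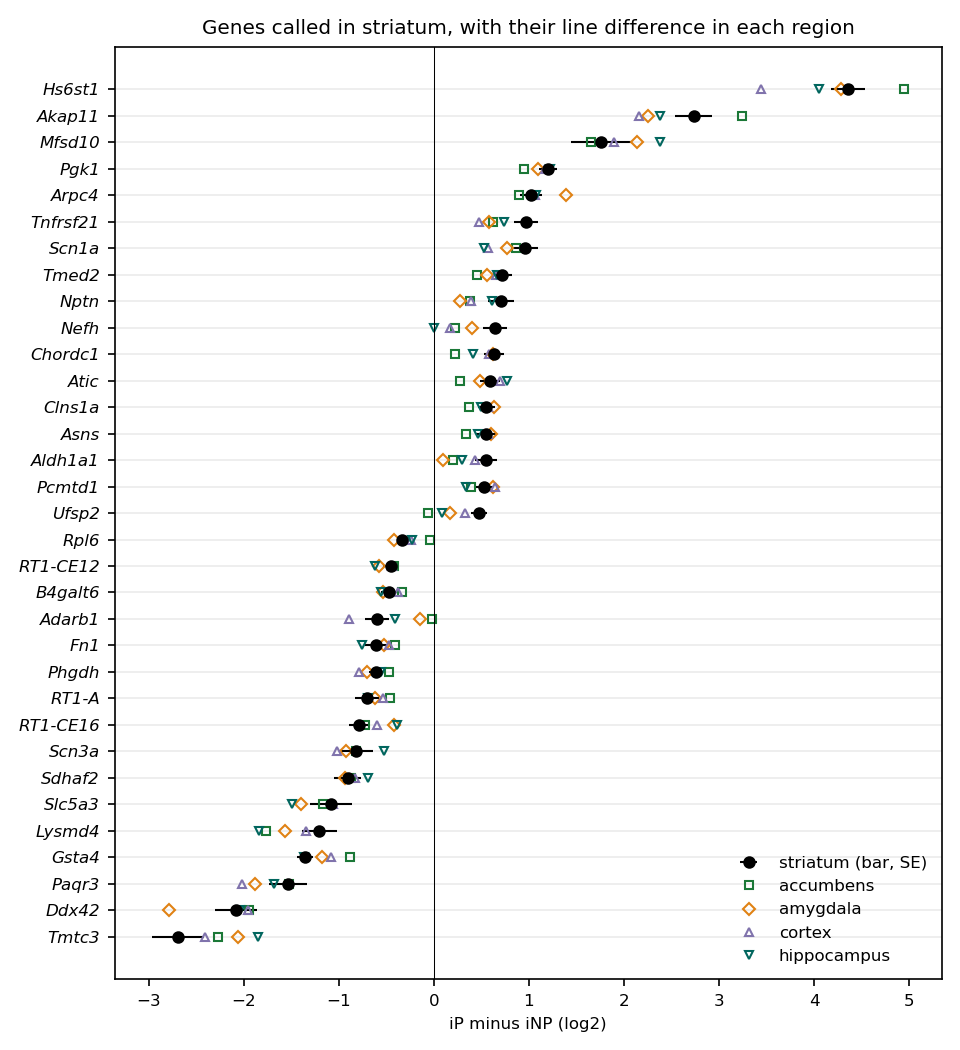
Difference between the lines (iP minus iNP, log2) of the 33 called genes with 1 symbol in striatum (filled points, bars are SE) and in the other 4 regions of the same rats (open symbols). The other regions lie on the same side of 0 as striatum except for Ufsp2, at -0.06 in accumbens, and Nefh, at -0.00 in hippocampus.

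Within each rat, striatum was set against the mean of its other regions, and these values were compared between the lines. No probe set was called (0 of 5244, 0%), with a smallest adjusted p of 0.946 in limma and 262 probe sets at an unadjusted p under 0.05. Against accumbens alone the count was also 0 (0%), with a smallest adjusted p of 0.832 and 286 at an unadjusted p under 0.05. Of the 44 striatum calls 7 and 8, in that order, were among these, beside 262 and 286 of all 5244 probe sets. The calls were chosen for a line difference in the same striatum values. Their counts therefore do not show a difference between regions. Against the other regions, the smallest p-values of genes with 1 symbol were those of Cryab, a small heat shock protein, at -0.42 ± 0.09, followed by C19h19orf53 at 0.44 ± 0.11, Kif3c, a kinesin motor, at 0.71 ± 0.19 and Cs, citrate synthase, at 0.45 ± 0.12. Against accumbens they were those of Eif4h, a helper of the translation helicase, at 0.73 ± 0.16, C1r, a complement protease, at 0.98 ± 0.21, Gsta4 at -0.47 ± 0.12 and RT1-Bb, a class II MHC gene, at 0.94 ± 0.23. Gsta4 differed by -1.35 ± 0.08 in striatum and -0.88 ± 0.09 in accumbens. None of these passed after adjustment, so no line difference was shown to be particular to striatum.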

How the data were processed

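The authors deposited 1 linear intensity for each probe set and array. For the program that summarised the probes, none is given in the sources used here. On every array the 2% trimmed mean came to 1000, so the deposited intensity was already scaled and was not scaled again. Signals under 16 were set to 16 and log2 transformed. From 8799 probe sets, 59 controls and the 40% with the lowest mean over 59 arrays were left out, leaving 5244. A single gene symbol was available for 7006 of the 8740 remaining before that filter, more than 1 for 308 and none for 1426, and 6985 of the 7006 were found in the GRCr8 gene table, with 0 symbols changed. The array annotation names no genome build, so no coordinates are given. Detection calls were not used, and the number of arrays limits the precision.

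iP minus iNP was tested with limma 3.58.1 in R 4.3.3 (lmFit and eBayes with an intensity trend, two-sided, Benjamini-Hochberg). Within rats, paired by the animal number in the titles, the level of each region was removed before the other regions were averaged, since 1 iP rat had no cortex array. Scripts were tested on simulated data. For a gene in a list, the tested probe set with the highest mean signal was used. No label says that rats of a line came from separate litters, so p-values measure the spread between these rats.

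Members, lists and tests were chosen with earlier results of these data known. All called probe sets with 1 symbol are named. Values by array are given for the 10 largest rises and 10 largest falls without overlap. From each list come up to 4 called members and the 2 brightest uncalled ones. All tested medium spiny neuron, interneuron and candidate genes, and the 4 smallest p-values of each within-rat test, are also given.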

Additional observations from a re-analysis of the deposited data

Results flagged for a closer look

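Of 50 groups of 6 arrays checked for a single distant array, 4 had one, and chance gives about 1 in 20. Striatum of iP animal 2 had a mean correlation of 0.951 with the arrays of its own line, below the other 5 iP arrays. The same rat had the highest Pgk1 signal, 13.87 (log2), above the other iP arrays. Akap11 was at 10.73 in striatum of iP animal 4, below the rest of its line and above all iNP arrays. Sdhaf2 was at 9.22 in striatum of iP animal 1, below both the other iP arrays and all iNP arrays. Akap11, Pgk1 and Sdhaf2 kept their calls when any 1 array was left out.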

How the results depend on the processing

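The striatum count of 44 calls kept within 1.5 times under all 25 alternatives, from 37 to 59. Leaving out 1 rat gave 37 to 45. Dropping 60% of probe sets gave 37, no drop 47, quantile normalization 45 and median centring of each array 41. A model with animals 1, 2, 7 and 8 as a block gave 49. Fitting all 59 arrays together gave 59, of which 40 are among the 44, both with the animal as a random replicate block and without it. No paired fit is possible within striatum, since the lines share no animal. For both within-rat comparisons the count was 0 in every alternative, also without cortex of iP animal 5 and amygdala of iP animal 1, and without the pairing (no replicate block, smallest adjusted p = 1.00 and 0.999). Without cortex of iP animal 5, a setting added after the data were seen, cortex had 24 calls in place of 12, and the fold bounds against the filter level were added then too. List genes called numbered 14, and 14 with quantile normalization and 13 with the mean of probe sets. Of the 35 called probe sets with 1 symbol, 23 stayed called wherever they were tested, and 0 reversed. Scn3a lost its call without iP animal 2, 5 or 6 or any iNP animal (adjusted p 0.0543 to 0.106). Adarb1 lost it without iP animal 1, 2, 3 or 5 or iNP animal 8 to 12 (0.0564 to 0.106), and Slc5a3 without iP animal 1 or 4 or any iNP animal (0.0562 to 0.0723). Asns lost it without iP animal 2 to 6 or iNP animal 7, 8, 9 or 12 (0.0508 to 0.0714), and Aldh1a1 without iP animal 1 or 5 or iNP animal 7, 8, 9 or 12 (0.0535 to 0.0741). So did Fn1 without iP animal 4 or iNP animal 8 or 11 (0.0503 to 0.0535), Pcmtd1 without iP animal 1 or iNP animal 10 (0.0506 and 0.0548), Nefh without iNP animal 9 (0.0518) and Nptn without iNP animal 12 (0.05004). Rpl6 lost it with median centring (0.105) and without the variance trend, and Nptn and Mfsd10 with no probe set dropped (0.0516 and 0.0525). B4galt6 had an adjusted p of 0.784 where the spread of all 59 arrays was used. Nefh had 0.0672 there. Without iP animal 5, B2m passed (-0.36, adjusted p = 0.0396). The number of arrays limits the precision, and signal over background was not measured here.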

Other observations

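Beside the calls, 32 probe sets separated the lines in striatum without passing the test. Those named here were chosen after their values were seen. C1r, a protease of the complement cascade, had 7.88, 8.09 and 8.49 in iP (lowest, median, highest), against 6.74, 7.53 and 7.81 in iNP, with a difference of 0.76 ± 0.20 (limma, adjusted p = 0.143). Rpl17, a ribosomal protein gene, had 9.06, 9.12 and 9.18 in iP, against 9.21, 9.55 and 9.72 in iNP, with a difference of -0.38 ± 0.11 (limma, adjusted p = 0.21). Gsto1, an omega class glutathione transferase, differed by 0.39 ± 0.10 and 0.41 ± 0.11 at its 2 probe sets, the opposite sign to Gsta4. Cryab, a small heat shock protein of glia, was read by 2 probe sets that disagreed. One had 10.83, 10.88 and 11.01 in iP, against 10.12, 10.49 and 10.77 in iNP, a difference of 0.40 ± 0.10 (limma, adjusted p = 0.137). The other had 10.92, 11.09 and 11.34 in iP, against 10.97, 11.16 and 11.22 in iNP, a difference of -0.03 ± 0.08, and it is the one with the smallest p against the other regions.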
